A study of Homo sapiens with 3 samples.

Results

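The canonical YAP/TAZ target genes described here are CCN2, ANKRD1, CRIM1, MYOF, AJUBA, THBS1, IGFBP3, FJX1, CCDC80 and FGF2, 10 genes that are widely used as readouts of YAP and TAZ activity. They were chosen by name with earlier results of these data known, and all 10 had a named probe set among the 14884 genes named on the array. RNA levels were measured in A549 cells, a human line long established from a lung carcinoma, on 1-colour Affymetrix whole-transcript arrays. The groups were cells transfected with an siRNA against TAZ (siTAZ), cells transfected with an siRNA against YAP (siYAP) and cells transfected with a control siRNA (siNC). Each group had 1 array, all 3 groups received siRNA with the same lipid reagent, and total RNA was taken 48 h after transfection. The labels do not give the siRNA sequences or say whether several siRNAs were pooled.

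YAP, encoded by YAP1, and TAZ, encoded by WWTR1, are related co-activators that carry no DNA-binding domain of their own and reach their target genes mainly through the TEAD transcription factors. The kinases of the Hippo pathway hold them in the cytoplasm, and spread cell shape, stiff matrix and low cell density release them into the nucleus. Many of their target genes encode secreted or matrix proteins, regulators of the cytoskeleton and feedback inhibitors, and their levels are used in lung and other carcinomas as a measure of the pathway.

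Levels are RMA values on a log2 scale, a difference is 1 such value minus another, and folds were obtained by taking differences back to the linear scale. A probe set stood for its gene as the brightest on average over the 3 arrays, and 9 of the 10 targets had 1 probe set. The 3 arrays had medians of 4.26 (siTAZ), 4.27 (siYAP) and 4.28 (siNC) over 53617 probe sets, and genes with a mean level of at least 4.27 formed the background of 10768 kept genes, which included all 10 targets. With 1 array per group no difference could be set against a spread between cultures, so no test is given and no value carries an error. In whole-culture RNA, fewer cells that express a gene and less RNA per cell cannot be told apart. WWTR1 itself was at 5.81 in siTAZ cells, 6.50 in siYAP cells and 6.50 in siNC cells, which left 62.2% of the control level in siTAZ cells. YAP1 was at 8.24 in siTAZ cells, 6.87 in siYAP cells and 8.45 in siNC cells, which left 33.5% of the control level in siYAP cells and 86.6% in siTAZ cells. These shares come from different probe sets on 1 array each, so they do not rank the knockdowns by depth, and the part of knockdown depth in the sizes given below was not tested. The 5 A549 epithelial markers with a probe set (of 9 listed) were EPCAM, KRT7, KRT8, KRT18 and KRT19, all above 4.27 on every array, from 6.10 to 11.38 in siTAZ cells, 6.44 to 11.56 in siYAP cells and 6.44 to 11.56 in siNC cells. Summed on the linear scale, they came to 3186 in siTAZ cells, 3574 in siYAP cells and 3590 in siNC cells.

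TEAD factors bind a short sequence whose core is written GGAATG, and it stands several times in the best-studied YAP/TAZ target promoters. The 250 bases before the gene start were available for 9 of the 10 targets (CRIM1 was not matched) and were searched for GGAATG on both strands; AJUBA had 2 starts, so 10 windows were searched. The windows are from RefSeq, build GRCh38.p14. The promoters of 3 genes that held a match, had a single start and were lower in both knockdown arrays are shown, CCN2 (chr6:131951373-131951622, minus strand), ANKRD1 (chr10:90921088-90921337, minus strand) and THBS1 (chr15:39580829-39581078, plus strand), 5′ to 3′ on the strand of the gene with each GGAATG in capitals.
CCN2: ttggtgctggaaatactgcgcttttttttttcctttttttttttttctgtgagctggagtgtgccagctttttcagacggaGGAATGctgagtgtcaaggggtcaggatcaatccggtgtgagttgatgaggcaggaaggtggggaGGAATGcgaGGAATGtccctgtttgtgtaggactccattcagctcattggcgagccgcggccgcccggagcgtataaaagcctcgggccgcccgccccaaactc
ANKRD1: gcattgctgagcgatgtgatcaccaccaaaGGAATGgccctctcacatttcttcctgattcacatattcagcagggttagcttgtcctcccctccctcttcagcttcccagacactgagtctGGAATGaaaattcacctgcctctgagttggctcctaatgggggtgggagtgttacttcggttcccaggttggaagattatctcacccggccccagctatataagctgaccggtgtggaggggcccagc
THBS1: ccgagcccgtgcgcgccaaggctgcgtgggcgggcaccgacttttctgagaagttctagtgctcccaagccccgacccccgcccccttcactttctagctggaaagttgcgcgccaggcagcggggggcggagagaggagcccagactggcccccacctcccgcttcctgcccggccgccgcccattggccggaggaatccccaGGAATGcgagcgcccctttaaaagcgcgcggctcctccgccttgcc
The CCN2 window held 3 matches, beginning 169, 104 and 95 bases before the start, and the closest pair is separated by only a few letters. The ANKRD1 window held 2, at 220 and 128 bases, and THBS1 held 1, at 46 bases. AJUBA held 1 match, 59 bases before the more downstream of its starts (22976842, against 22982551, on the minus strand of chromosome 14). The windows of MYOF, IGFBP3, FJX1, CCDC80 and FGF2 held none, which says only that these letters do not stand in these windows. Of 35116 RefSeq windows of the same length, 11.9% held at least 1 match, 0.94% at least 2 and 0.0826% at least 3. AP-1 factors, which often sit beside TEAD, typically bind TGACTCA or TGAGTCA. The wider pattern TGANTCA was searched as spelled. That covers both strands because N allows any base and the rest reads the same on the other strand. This wider pattern was found in 1 of the 10 windows, that of ANKRD1, against 6.57% of all windows, so the count is not far from that share. It began 195 bases before the start, between the GGAATG matches and overlapping neither. The letters there are TGATTCA, so the match is not the typical AP-1 site.

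**Figure D1:**
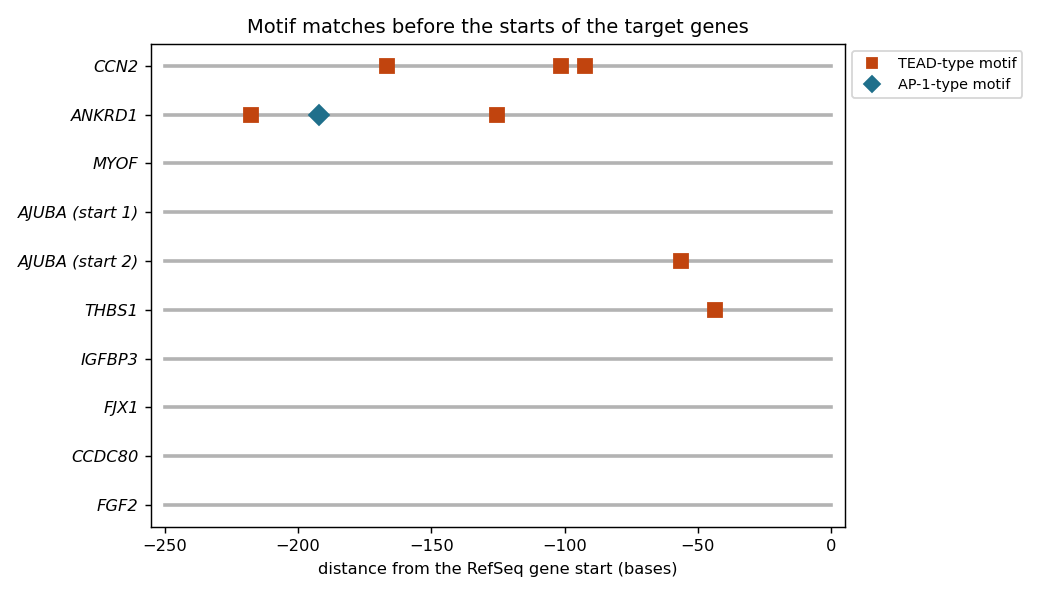
Matches to the TEAD-type motif (squares) and the AP-1-type motif (diamond) in the 250 bases before the RefSeq gene start, 1 line per start; the x axis is the distance from the start in bases. CCN2 has 3 TEAD-type matches, ANKRD1 has 2, THBS1 and the second AJUBA start have 1 each, and the other windows have none.

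Of the 9 targets with a window, CCN2 and ANKRD1 held more than 1 match and had the lowest differences in siTAZ cells. In siYAP cells THBS1, with 1 match, was lower (-0.61) than ANKRD1 (-0.57). FGF2, with 0 matches, was 1.51-fold lower in siTAZ than in siNC cells. These are descriptions that carry no test. CCN2, a secreted matricellular protein formerly called connective tissue growth factor, was at 6.35 in siTAZ cells, 6.81 in siYAP cells and 7.90 in siNC cells (probe set 17023646). Both knockdown arrays were below the control, siTAZ by 2.94-fold (34.1% of the control left) and siYAP by 2.13-fold (46.9% left). CCN2 was the 4th lowest difference of 10768 kept genes for siTAZ and the 7th lowest for siYAP. Its second probe set (17118180) was dim on every array, at 1.84 in siTAZ cells, 1.87 in siYAP cells and 1.87 in siNC cells. That probe set showed almost no difference, and the mean of both gave -0.79 for siTAZ and -0.55 for siYAP in place of -1.55 and -1.09.

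ANKRD1 encodes an ankyrin repeat protein found in the nucleus and, in muscle, at the sarcomere. It was at 4.18 in siTAZ cells, 5.84 in siYAP cells and 6.41 in siNC cells (probe set 16716478). The siTAZ array was far below the other arrays, at 21.3% of the control, while the siYAP array kept 67.3%. Its siTAZ difference of -2.23 was the 2nd lowest of the kept genes, and its siYAP difference of -0.57 the 45th lowest. The siTAZ level lay under 4.27, the median of all probe sets, and ANKRD1 was among the kept genes through its siYAP and siNC levels, so the siTAZ difference and its rank rest on a dim value. With every level under 4.27 set to 4.27, an alternative chosen after seeing the data, the siTAZ difference was -2.15 and again the 2nd lowest. That floor lies close to 4.18, so it could move the difference little and does not show how reliable the dim value is.

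THBS1 encodes thrombospondin-1, a matrix glycoprotein that can activate latent TGF-beta. Its level was 6.50 in siTAZ cells, 6.59 in siYAP cells and 7.20 in siNC cells (probe set 16799315). Both knockdown arrays lay close together below the control, at 61.6% of it for siTAZ and 65.6% for siYAP. Of the 10 targets, THBS1 and CCN2 were those at least 1.5-fold lower in the siYAP than in the siNC array. CCDC80, another secreted protein that associates with the matrix, was at 6.68 in siTAZ cells, 7.20 in siYAP cells and 6.91 in siNC cells (probe set 16957396). It was 1.17-fold below the control in the siTAZ array and 1.23-fold above it in the siYAP array, and was the target on opposite sides of the control in the 2 knockdowns. Among kept genes, 2.89% were likewise lower in siTAZ and higher in siYAP cells by any amount.

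FGF2 encodes basic fibroblast growth factor, a ligand of the FGF receptors. It was at 8.07 in siTAZ cells, 8.40 in siYAP cells and 8.67 in siNC cells (probe set 16970404). Both knockdown arrays were lower, siTAZ by 1.51-fold, just past 1.5-fold, and siYAP with 83.2% of the control left. IGFBP3, a secreted carrier of insulin-like growth factors, was at 8.73 in siTAZ cells, 8.72 in siYAP cells and 8.69 in siNC cells (probe set 17057478). These levels lay within 0.037 of each other on the log2 scale, with both knockdown arrays slightly above the control.

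CRIM1 encodes a membrane protein with cysteine-rich repeats that binds bone morphogenetic proteins. It was at 9.001 in siTAZ cells, 9.31 in siYAP cells and 9.75 in siNC cells (probe set 16879067). This left 59.4% of the control level in siTAZ cells and 73.8% in siYAP cells, with the siYAP array between the others. MYOF, which encodes myoferlin, a ferlin of membrane repair and fusion, was at 9.80 in siTAZ cells, 9.91 in siYAP cells and 10.27 in siNC cells (probe set 16716590). The knockdown arrays were near each other, 1.39-fold and 1.28-fold below the control for siTAZ and siYAP.

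AJUBA encodes a LIM-domain protein of cell junctions that restrains the LATS kinases, and so acts on the pathway that controls it. It was at 6.48 in siTAZ cells, 6.65 in siYAP cells and 6.996 in siNC cells (probe set 16790614), 1.43-fold and 1.27-fold below the control for siTAZ and siYAP. FJX1 is the human counterpart of a Drosophila Golgi kinase that modifies the cadherins Fat and Dachsous upstream of Hippo. It had the same value, 7.16, on all 3 arrays (probe set 16723662). Identical values were common in this table, since 41.1% of kept genes had the same value on all 3 arrays, so the FJX1 value shows no measured difference and does not show that its RNA was unchanged.

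**Figure D2:**
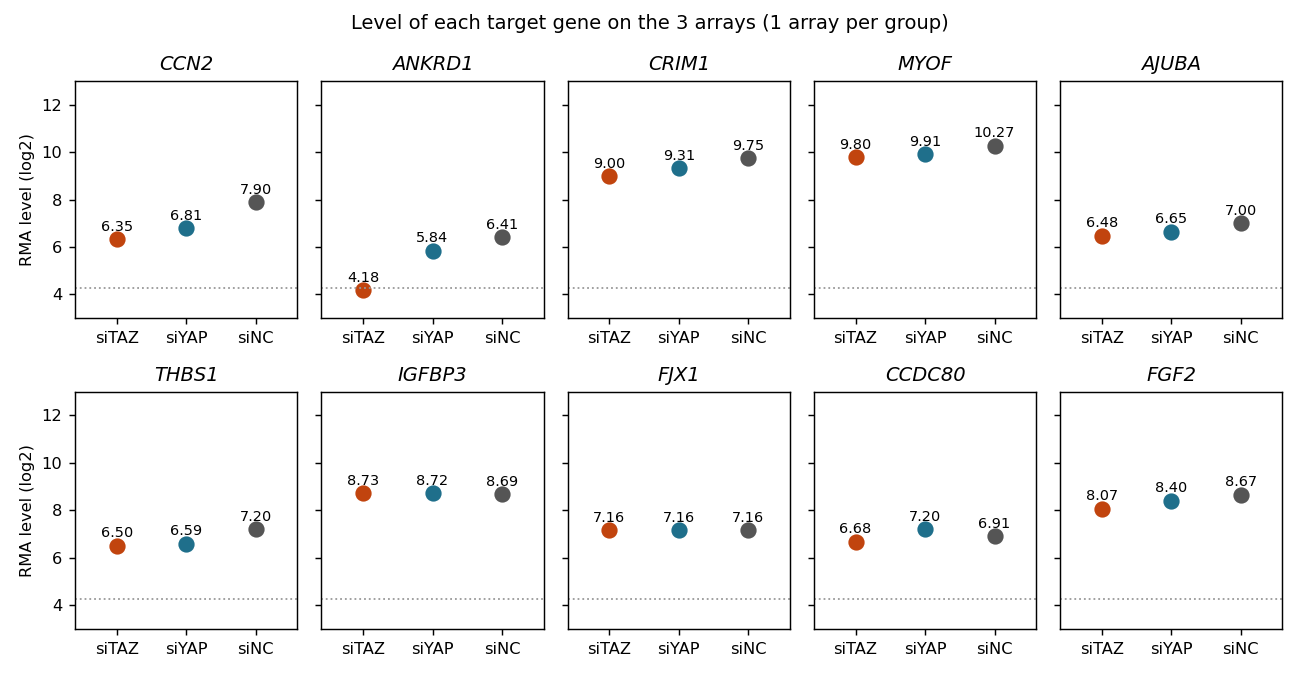
RMA level (log2, y axis) of each target on the siTAZ, siYAP and siNC arrays, 1 point per array with its value above it; the dotted line is 4.27, the median over all probe sets. CCN2, ANKRD1, CRIM1, MYOF, AJUBA, THBS1 and FGF2 have their highest point in siNC cells, FJX1 is level, and ANKRD1 in siTAZ cells is the point under the line.

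Over the 10 targets, 5 were at least 1.5-fold lower in siTAZ than in siNC cells (CCN2, ANKRD1, CRIM1, THBS1 and FGF2), where 1.02% of kept genes were. At 2-fold these were 2 targets, CCN2 and ANKRD1, against 0.241% of kept genes. Lower by any amount were 8 targets, against 21.7% of kept genes. Shares by any amount, here and below, are held down by ties, since 41.1% of kept genes had the same value on all 3 arrays. IGFBP3 was the 1 target higher by any amount, against 29.7% of kept genes, and FJX1 was identical; 0 targets were at least 1.5-fold higher, against 0.762% of kept genes. The median difference over the targets was -0.55, beside a median of 0 over the kept genes. Because the targets were chosen with earlier results of these data known, the shares of kept genes describe the background and give no test.

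In siYAP cells, 2 targets were at least 1.5-fold below siNC cells (CCN2 and THBS1), against 0.381% of kept genes. ANKRD1, at 1.49-fold, lay just short of that threshold. CCN2 was at least 2-fold lower, against 0.121% of kept genes. Lower by any amount were 7 targets, against 21.7% of kept genes, 2 targets were higher (CCDC80 and IGFBP3), against 27% of kept genes, and FJX1 was identical. As in siTAZ cells, 0 targets were at least 1.5-fold higher, against 0.52% of kept genes. The median difference over the targets was -0.35, beside 0 over the kept genes. Both comparisons subtract the same control array, so their values are set side by side here and are not independent of each other.

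**Figure D3:**
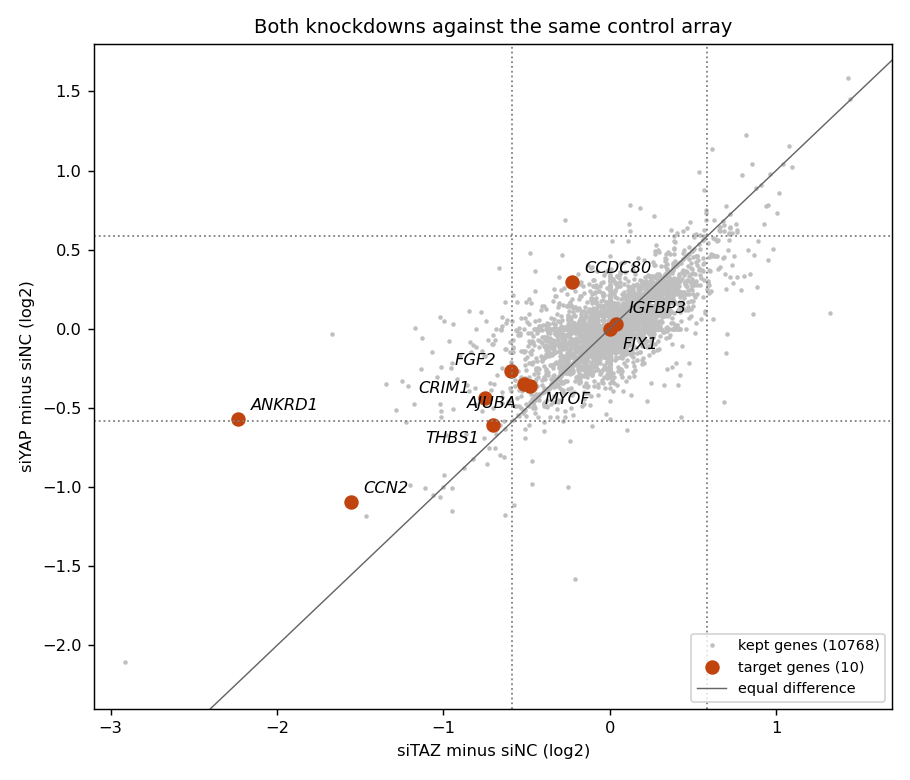
Difference from the siNC array on the log2 scale for siTAZ (x axis) and siYAP (y axis), with the 10768 kept genes in grey and the 10 targets in red; dotted lines mark 1.5-fold and the solid line equal differences. ANKRD1 and CCN2 lie farthest to the left, CCDC80 lies above 0 on the y axis, and IGFBP3 and FJX1 lie at or near 0 on both axes. Both axes share the control array.

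The siTAZ and siYAP arrays were also compared directly as siTAZ minus siYAP, which needs no control array. This compares the sizes of the knockdown effects only for genes on the same side of the control in both arrays. Of the 10 targets, 8 were lower in siTAZ than in siYAP cells by any amount, against 19.9% of kept genes, 1 was higher, against 26.2% of kept genes, and 1 was identical. These exceptions were IGFBP3, at 0.0080 higher in siTAZ cells, and FJX1, and 0 targets were at least 1.5-fold higher, against 0.176% of kept genes. ANKRD1 was 3.16-fold lower in siTAZ than in siYAP cells, the lowest of the 10768 kept genes as deposited. This fold also rests on the dim siTAZ level of 4.18; with levels under 4.27 set to 4.27 it was 2.98-fold and the 2nd lowest. It was the 1 target past 1.5-fold, where 0.566% of kept genes were lower by that much, and past 2-fold, where 0.065% were. CCDC80 followed at -0.52 (84th lowest) and CCN2 at -0.46 (109th lowest). CCDC80 lay on opposite sides of the control (-0.23 in siTAZ, 0.30 in siYAP cells), so its value is not a larger siTAZ effect. FGF2 (-0.33) and CRIM1 (-0.31) were 243rd and 262nd lowest. AJUBA (-0.16), MYOF (-0.12) and THBS1 (-0.090) lay inside the range that holds the middle of the kept genes, from -0.20 at the 5th percentile to 0.17 at the 95th percentile. The median over the targets was -0.24, beside 0 over the kept genes.

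**Figure D4:**
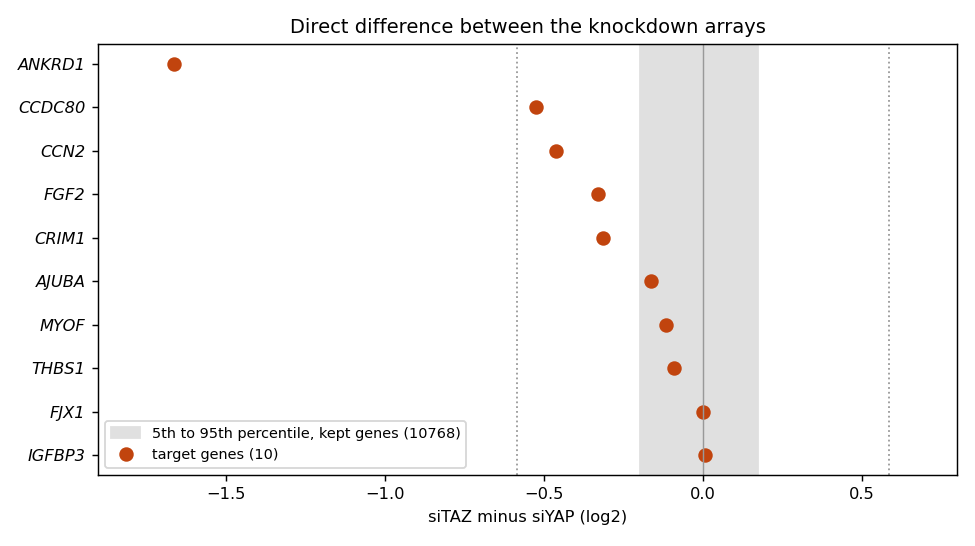
Direct difference siTAZ minus siYAP (log2, x axis) for each target, 1 point per gene, with the 5th to 95th percentile of the 10768 kept genes shaded and dotted lines at 1.5-fold. ANKRD1 lies at -1.66, CCDC80, CCN2, FGF2 and CRIM1 lie left of the shaded range, and the other 5 targets lie within it.

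The genes nearest to CCN2 and ANKRD1 were looked for among the kept genes by the distance between their siTAZ and siYAP differences from siNC, on the log2 scale over these 3 arrays. Nearest to CCN2 was AXL, a receptor tyrosine kinase, at a distance of 0.13, with 7.78 in siTAZ cells, 8.06 in siYAP cells and 9.24 in siNC cells. Next came F2RL2, a protease-activated receptor (distance 0.37), and IL11, an interleukin that signals through gp130 (distance 0.46). The gene nearest to ANKRD1 was GALNT1, an enzyme that starts O-glycosylation, at a distance of 0.78, and it was at 8.45 in siTAZ cells, 10.09 in siYAP cells and 10.12 in siNC cells. Like ANKRD1, GALNT1 had its lowest level in siTAZ cells, but its siYAP level was close to the control. CCN2 (0.85) and the autophagy receptor gene SQSTM1 (0.91) were next. All distances to ANKRD1 use its dim siTAZ level.

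Other genes listed as YAP/TAZ targets were set beside the 10. Of the 15 other genes of a 22-gene YAP/TAZ target signature, 5 had a named probe set. Those without one, CCN1 among them, could not be read. Of the 5 with a probe set, 3 were at least 1.5-fold lower in siTAZ than in siNC cells, where 1.02% of kept genes were. They were AXL (2.76-fold), DOCK5, an activator of Rac (2.03-fold), and AMOTL2, an angiomotin that binds YAP (1.51-fold). In siYAP cells AXL alone of these was past 1.5-fold lower (0.381% of kept genes were), at 2.27-fold, with DOCK5 at 1.39-fold and AMOTL2 at 1.30-fold. FOXF2, a forkhead factor, was at 6.86 in siTAZ cells, 6.55 in siYAP cells and 6.33 in siNC cells, and ARHGEF17 was identical on all arrays. The median over these 5 was -0.60 for siTAZ and -0.38 for siYAP.

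A longer list held 29 further YAP/TAZ-TEAD targets, 24 of them with a probe set and 22 kept. Its median difference was 0 in both comparisons with the control. TNS3, a tensin of focal adhesions, was the 1 gene at least 1.5-fold lower in siTAZ cells, where 1.02% of kept genes were. It was at 7.48 in siTAZ cells, 8.11 in siYAP cells and 8.25 in siNC cells, which left 58.7% of the control level in siTAZ cells and 90.6% in siYAP cells. In the siTAZ array 11 of the 24 were lower by any amount (21.7% of kept genes were), 5 higher (29.7% of kept genes) and 8 identical. In the siYAP array 10 were lower (21.7% of kept genes), 9 higher (27% of kept genes) and 5 identical. There, 0 were past 1.5-fold, against 0.381% of kept genes lower and 0.52% higher by that much. Identical values on all 3 arrays were held by 41.1% of kept genes. On the high side, ZYX, the focal adhesion protein zyxin, was 1.48-fold above the control in both knockdown arrays, and VGLL3, a TEAD cofactor, was 1.45-fold above it in siTAZ and 1.30-fold above it in siYAP cells.

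**Figure D5:**
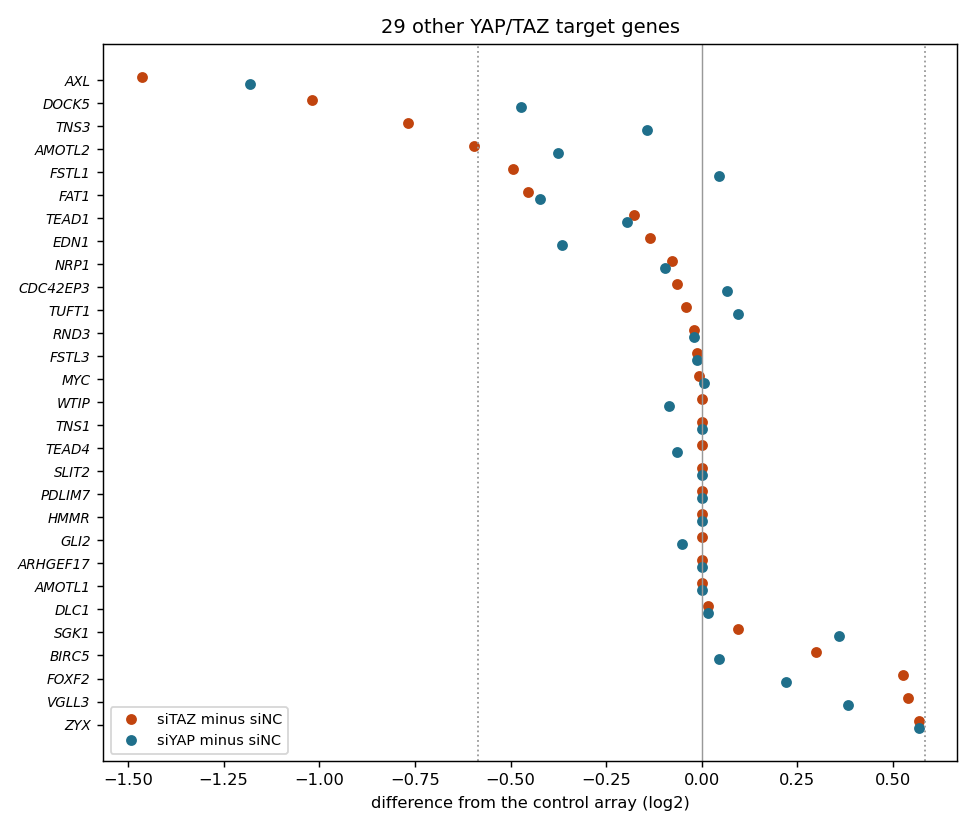
Difference from the siNC array (log2, x axis) for siTAZ (red) and siYAP (blue) in the 29 other listed YAP/TAZ target genes with a probe set, ordered by the siTAZ difference; dotted lines mark 1.5-fold. AXL, DOCK5, TNS3 and AMOTL2 lie past 1.5-fold lower in siTAZ cells, AXL does so in siYAP cells, and ZYX, VGLL3 and FOXF2 are the highest in siTAZ cells.

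Short lists of TGF-beta/SMAD targets and of targets of SRF with its cofactor MRTF were read out on the same arrays. Of 17 TGF-beta/SMAD targets, 7 had a probe set and 0 reached 1.5-fold in either knockdown, with medians of 0. Over all kept genes 1.02% were lower and 0.762% higher by 1.5-fold in siTAZ cells, and 0.381% and 0.52% in siYAP cells, so lists this short would seldom hold such a gene. The differences ran no lower than SKIL, a SMAD repressor, which was at 7.84 in siTAZ cells, 7.84 in siYAP cells and 7.91 in siNC cells. Of 18 SRF/MRTF targets, 11 had a probe set, 9 were kept and 0 reached 1.5-fold, with medians of 0. Their siTAZ differences ran from -0.26 (TPM1) to 0.30 (CNN2). Identical values made up 4 (siTAZ) and 5 (siYAP) of the 7 TGF-beta/SMAD differences. They made up 5 and 6 of the 11 SRF/MRTF differences, so medians of 0 do not show that these RNAs were unchanged. Over all kept genes, 41.1% had the same value on all 3 arrays. The part of either pathway in the target differences was not tested. Among the TEAD genes, TEAD1 was at 8.98 in siTAZ cells, 8.96 in siYAP cells and 9.15 in siNC cells, and TEAD2, TEAD3 and TEAD4 differed from the control by at most 0.064 in either knockdown.

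Markers of other cell types were read from the same probe sets. Of 6 leukocyte markers, 3 had a probe set, and their summed linear level was 548 in siTAZ cells, 555 in siYAP cells and 381 in siNC cells, mostly from CD68, a lysosomal protein that other cells can express (log2 levels of 9.001 in siTAZ, 9.02 in siYAP and 8.43 in siNC cells). Of 7 fibroblast markers, 3 had a probe set, with a summed linear level of 319.98 in siTAZ cells, 314 in siYAP cells and 217 in siNC cells, mostly from LUM. LUM was at 8.14 in siTAZ cells, 8.10 in siYAP cells and 7.45 in siNC cells, 1.61-fold and 1.58-fold above the control. The fibroblast gene THY1 went the other way, at 5.06 in both knockdown arrays and 5.22 in siNC cells. The leukocyte gene CD14 was at 4.49 in siTAZ cells, 4.55 in siYAP cells and 4.49 in siNC cells. The leukocyte gene LYZ and the fibroblast gene DCN lay under 4.27 with identical values on all arrays. The 3 of 4 endothelial markers with a probe set summed to 51.2 in siTAZ cells, 50.3 in siYAP cells and 48.4 in siNC cells. The part of CD68 and LUM in the target differences was not tested.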

How the data were processed

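RNA of 3 A549 cultures (500 ng of total RNA per labelling) was measured on 1 array per group. The authors summarised the arrays with RMA, per the submitters' processing notes, which corrects background, quantile-normalizes and combines the probes of a probe set; neither its version nor a genome build is stated in the sources used here. The values the authors deposited after RMA were taken as log2, a scale not stated with them, from their range of 0.961 to 13.5 and near-equal medians. After quantile normalization a value is a position relative to the rest of its own array. The number of arrays limits the precision.

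Symbols came from the platform annotation: 16098 probe sets had 1 symbol, 0 had several and 37519 were unnamed. All 16098 Entrez identifiers matched RefSeq (GRCh38.p14), and 0 symbols changed. No coordinates are given from the array's annotation, because its build is not stated. The promoter windows and the AJUBA starts carry the coordinates of RefSeq's own table. Differences, folds and ranks were computed with Python 3.11.15 and pandas 2.3.3. The subtraction and counting were checked on known shifts added to the control levels without noise. That check covers the arithmetic only and says nothing of how reliable single arrays are.

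The targets, the other gene lists and the thresholds were chosen with earlier results of these data known. Named genes were the 10 targets, both siRNA targets, genes of the wider target lists past 1.5-fold, and the 3 nearest genes to CCN2 and to ANKRD1; further list genes were picked as examples once their values were known. The alternatives changed the probe set rule, normalization, centring, level trend (loess, span 0.4), control array, filter and threshold.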

Additional observations from a re-analysis of the deposited data

Results flagged for a closer look

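CCDC80 is singled out because its knockdown arrays lay on opposite sides of the control, at -0.23 for siTAZ and 0.30 for siYAP on the log2 scale. The difference between them was not tested, since each group has 1 array.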

How the results depend on the processing

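No paired analysis was possible because each group has 1 array, and no replicate could be left out. A new quantile normalization and subtraction of a loess trend moved 0 of the 30 differences of the targets (10 genes in 3 comparisons) by 0.1 or more on the log2 scale, with largest moves of 0.026 and 0.0024. RMA had already quantile-normalized the arrays, so these steps had little to move. Centring on the median of the kept genes could move nothing, because that median was 0 in all 3 comparisons. Setting levels under 4.27 to 4.27, chosen after seeing the data, moved the targets by at most 0.086. It could do little more, since the 1 target level under that floor, ANKRD1 in siTAZ cells, was 4.18. With the new quantile normalization ANKRD1 passed 1.5-fold in siYAP cells (-0.59), which made 3 targets. The mean of all probe sets moved the 3 CCN2 differences (to -0.79 for siTAZ, -0.55 for siYAP and -0.25 for siTAZ minus siYAP), and left 1 target at least 1.5-fold lower in siYAP cells. With the mean of siNC and the other knockdown as the reference, which takes part of any shared change away by construction, 16 of 20 differences moved: the median over the targets became -0.38 for siTAZ and -0.031 for siYAP, 2 targets were at least 1.5-fold lower for siTAZ and 0 for siYAP, and ANKRD1 in siYAP cells stood at 0.55. The shares of kept genes were not recomputed under the changed normalization, probe set rule or reference, so these counts of targets have no background. At 2-fold in place of 1.5-fold, 2 targets were lower for siTAZ and 1 for siYAP. At that threshold the shares of kept genes lower and higher were 0.241% and 0.0743% for siTAZ, 0.121% and 0.0743% for siYAP, and 0.065% and 0.0279% for siTAZ minus siYAP. Without the filter on dim probe sets, or with one at the 75th percentile, the shares at 1.5-fold stayed within 1.5 times those given. All 10 targets passed the filter at the median, so it changed no median over them.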
